A study of Mus musculus with 76 samples.

Results

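Alveolar septa, the thin walls between the air spaces of the lung, were compared between wild-type control mice at 8 months (5 arrays) and wild-type control mice at 3 months (4 arrays). The samples were chosen by their titles alone, 9 of 76 arrays, and none of the measured values entered that choice. The series examined Noxo1, the gene of a subunit that organises the NADPH oxidase NOX1, in cigarette smoke-induced emphysema and pulmonary hypertension of the mouse, and holds septa and vessels microdissected from 40 mice. In all groups the labels give the line C57BL/6-Noxo1(tm1881_17.2Arte), with wild-type or knockout genotype, and smoke exposure of the exposed mice from week 12. The months are the study's time points. The mice's ages, their sex and the handling of the controls were not stated, so time here covers whatever differed between the 8-month and the 3-month controls. Beside the wild-type controls, 10 arrays of Noxo1 knockout control septa, 10 of smoke-exposed wild-type septa and 10 of wild-type control vessels (2 of them from 1 mouse), each set split between 8 and 3 months, served for comparison.

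The alveolar wall is made of flat type 1 pneumocytes that carry gas exchange, type 2 pneumocytes that secrete surfactant, a dense bed of capillary endothelium, fibroblasts that lay down elastin and collagen, and immune cells. Many neutrophils are held in lung capillaries and carry granule proteases and calcium-binding S100 proteins. Lung cells also follow the circadian clock and the daily swing of glucocorticoid hormone, and both act through well-known target genes.

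The values are log2 array intensities, in which a difference of 1 is a doubling. Levels of different genes are not comparable, since each comes from its own probe. The 95th percentile of 1324 odorant and vomeronasal receptor genes, which are silent in lung, was 3.21 and is called the dim level below. Of the 20710 genes tested, 60.9% had a mean over the septa above it. The mean level of 13 type 1 pneumocyte markers was 10.03 to 10.65 in the 8-month arrays and 10.11 to 10.63 in the 3-month arrays, and that of 14 type 2 pneumocyte markers 9.58 to 10.25 at 8 months and 9.57 to 9.72 at 3 months. Smooth muscle markers, abundant in vessel walls, averaged 5.08 to 5.81 at 8 months and 5.17 to 6.03 at 3 months, against 8.63 to 9.64 in the vessel samples. Each of the 9 arrays correlated with the rest of the study's 39 septa arrays at a median r of 0.901 to 0.929. Among the 9 arrays the median r was 0.912 within 8 months, 0.931 within 3 months and 0.919 between them. Noxo1 itself was 3.57, 4.98, 2.87, 2.41 and 1.39 at 8 months and 2.82, 4.13, 5.55 and 3.43 at 3 months, close to the dim level in either group. The samples are labelled wild-type, and at values this close to the dim level Noxo1 checks no label here.

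The label of 1 of these 9 arrays is in doubt. Replicate 4 of the 8-month group, from mouse 29, had the female pattern, with Xist at 12.48 and the Y-linked gene Eif2s3y at 2.89, whereas the vessel array of the same mouse had the male pattern, with Xist at 3.45 and Eif2s3y at 8.88. The knockout control mouse 7 showed the reverse, male septa and a female vessel. These were 2 of 35 mice with both tissues. Replicate 2 of the 3-month group, from mouse 22, was female in both tissues, so that each group held 1 array with the female pattern. Results are given with all arrays, and list medians that moved by over 1.5 times without the doubtful array also without it. The comparison sets hold arrays of the same 2 mice: the septa of mouse 7 among the knockout controls and the vessel of mouse 29 among the control vessels. Values of those sets, and gene differences from them, are given with these arrays included and carry the same doubt.

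No gene passed an adjusted p of 0.05 between 8 and 3 months (limma, Benjamini-Hochberg over 20710 genes, 0% called). The lowest adjusted p was 0.0921. Before adjustment 1551 genes (7.49%) had a p under 0.05, 797 of them higher (3.85%) and 754 lower (3.64%) at 8 months. The 8-month and 3-month arrays did not overlap for 286 higher genes (1.38%) and 262 lower genes (1.27%). The difference was above 0 for 51.1% of genes, with a median of 0.01. Without the array of mouse 29 the count was 0 as well. The values below are therefore descriptions of these 9 arrays, and the number of arrays limits their precision. Some calls appeared under other settings: 4 genes with array weights, 2 in 1 fit of both tissues and 0 to 4 with single arrays left out, while the other alternatives run gave 0. The most came with only these 9 arrays in the fit, where 12 genes passed, 10 of them higher (Ccdc71l, Rab44, Retnlg, S100a8, Zbtb16, Hdc, Rdh12, Atg2a, Mmp8 and Npr3) and 2 lower (Pgr and Vwf).

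The 10 genes of lowest p that were higher at 8 months included several known from myeloid cells. Rab44, a large Rab GTPase of blood-forming and immune cells, gave 10.04, 8.77, 10.50, 9.11 and 9.27 at 8 months, against 6.58, 6.10, 7.36 and 6.98 at 3 months. The groups did not overlap, and the difference was 2.78 ± 0.55 (SE; adjusted p = 0.0921), a ratio of 6.88. Cd14, the lipopolysaccharide co-receptor of monocytes and neutrophils, was at 9.80, 7.48, 8.40, 6.47 and 7.81 at 8 months, against 4.31, 5.81, 5.70 and 3.15 at 3 months. It had the widest difference of the 10, 3.25 ± 0.68 (adjusted p = 0.0921), with replicate 1 the highest array and replicate 4 of the 8-month group, that of mouse 29, the lowest of its group. Without mouse 29 the Cd14 difference was 3.63. Cd14 belongs to the interstitial macrophage and monocyte list, of which 4 of 11 measured members were above 0, against 51.1% of all genes. That list had a median of -0.09, or -0.16 without mouse 29. Adam8, a membrane metalloprotease of leukocytes, gave 7.62, 6.17, 7.38, 5.92 and 6.45 at 8 months, against 2.74, 3.55, 4.70 and 4.15 at 3 months. All 8-month arrays lay above all 3-month arrays, with a difference of 2.92 ± 0.67 (adjusted p = 0.122).

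The other 7 genes of this set serve metabolism, signalling and protein turnover. Angptl4, a secreted inhibitor of lipoprotein lipase, was 10.12, 8.74, 10.12, 9.94 and 9.80 at 8 months, against 7.26, 8.40, 8.15 and 7.82 at 3 months, a difference of 1.84 ± 0.38 (adjusted p = 0.0921). Replicate 2 of the 8-month group stood below the other 8-month arrays and still above every 3-month array. March7, a membrane-bound ubiquitin ligase, averaged 10.71 ± 0.44 at 8 months (SD, n = 5) and 9.40 ± 0.36 at 3 months (n = 4), a difference of 1.31 ± 0.27. Npr3, the clearance receptor of natriuretic peptides, was 9.06, 9.35, 8.47, 8.93 and 9.59 at 8 months, against 7.40, 7.09, 7.17 and 7.17 at 3 months. Its 3-month arrays were tight, with an SD of 0.14, and the difference was 1.87 ± 0.44 (adjusted p = 0.143). Rdh12, a retinal reductase, differed by 2.38 ± 0.52. Pdcd10, a partner in endothelial junction signalling that is mutated in cerebral cavernous malformation, differed by 1.61 ± 0.37. Kcnj15, an inwardly rectifying potassium channel, differed by 2.28 ± 0.54 on its brightest probe and by 0.62 ± 0.86 on its second probe, and Psmb1, a subunit of the proteasome core, by 2.14 ± 0.52. In all 10 genes the groups did not overlap, as the choice of lowest p favours, and without mouse 29 their differences ran from 1.32 to 3.63.

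The 10 genes of lowest p that were lower at 8 months held genes of the vessel wall, the cytoskeleton and the matrix. Vwf, von Willebrand factor of larger-vessel endothelium and platelets, was 10.72, 11.22, 10.93, 10.81 and 11.05 at 8 months, against 11.74, 12.34, 12.08 and 12.07 at 3 months. The groups were well apart and tight, and the difference was -1.11 ± 0.24 (adjusted p = 0.105). Zeb1, a transcription factor of mesenchymal cells, was 9.63, 8.61, 9.75, 9.79 and 10.16 at 8 months, against 11.53, 11.31, 10.56 and 11.21 at 3 months, a difference of -1.57 ± 0.32 (adjusted p = 0.0921). Replicate 3 of the 3-month group was the nearest to the 8-month arrays. Abcb1a, the drug efflux pump P-glycoprotein, averaged 6.04 ± 0.84 at 8 months and 8.68 ± 0.79 at 3 months, a difference of -2.64 ± 0.59 (adjusted p = 0.107). Ehd4, an endocytic recycling protein, differed by -0.88 ± 0.21.

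Map1b, a microtubule-associated protein, had the widest difference. It was 6.39, 1.26, 2.69, 2.31 and 1.51 at 8 months, against 9.45, 6.73, 7.16 and 7.70 at 3 months. Only replicate 1 of the 8-month group was above the dim level, and the difference of -4.93 ± 1.05 (adjusted p = 0.0947) became -1.43 ± 0.76 on its second probe. Ckb, brain-type creatine kinase, averaged 6.71 ± 1.15 at 8 months and 8.59 ± 0.49 at 3 months, a difference of -1.88 ± 0.41, with 0.22 ± 0.61 on a second, dim probe. Nephronectin, Npnt, a basement membrane ligand of integrin alpha8 beta1, was 11.69, 11.47, 11.43, 12.33 and 11.34 at 8 months, against 12.88, 12.23, 12.65 and 12.61 at 3 months. Its groups overlapped through replicate 4 of the 8-month group, the array of mouse 29. The difference was -0.94 ± 0.22 with all arrays (adjusted p = 0.15) and -1.11 without that array, and 0.13 ± 0.70 on its second probe. Tram2, an endoplasmic reticulum protein needed for collagen synthesis, differed by -2.45 ± 0.55, the filament-forming GTPase Septin4 by -1.17 ± 0.28, and Ablim3, an actin-binding protein, by -1.08 ± 0.26. The groups did not overlap for 7 of the 10.

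**Figure D1:**
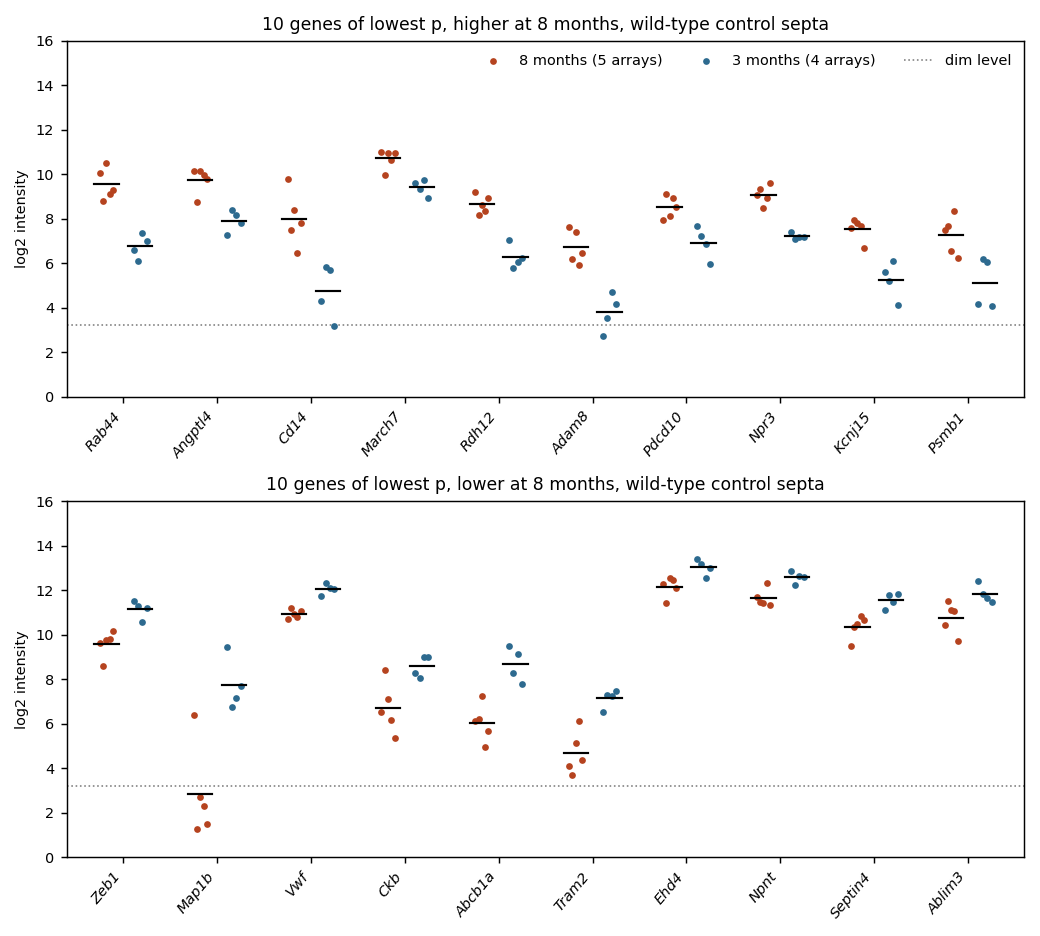
Each point is 1 array of wild-type control septa, 8 months left of 3 months for each gene, with log2 intensity on the vertical axis, a black bar at the group mean and a dotted line at the dim level of 3.21. The upper panel shows the 10 genes of lowest p that were higher at 8 months, all without overlap, and the lower panel the 10 that were lower, where Map1b lies under the dim level in 4 of 5 8-month arrays.

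The time difference of these 20 genes was set beside that in other arrays of the study. The knockout and smoke-exposed arrays entered the variance of the fit that ranked the genes, so these counts are descriptions and not independent of the choice. In Noxo1 knockout control septa, 8 months minus 3 months, 9 of the 10 higher genes had the same sign and 7 reached an unadjusted p under 0.05, against a background of 4.06% of genes higher (53.2% of all genes were above 0 there). Of the 10 lower genes 8 had the same sign and 4 reached it, against 2.92%. The differences were smaller in the knockout for most of them, but the genes had been chosen on the wild-type values. Cd14 gave 1.67 ± 0.64 in the knockout, Adam8 1.74 ± 0.63 and Rab44 1.05 ± 0.51, and Npnt gave -0.85 ± 0.21, close to its wild-type value. Npr3 gave -0.07 ± 0.41 and Map1b 0.11 ± 0.99 in the knockout. In smoke-exposed wild-type septa, 10 of 10 higher and 10 of 10 lower genes had the same sign, with 5 and 6 at an unadjusted p under 0.05, against 5.12% higher and 4.19% lower over all genes, of which 49.3% were above 0. None of these genes passed the adjustment in either set. Angptl4 gave 1.5 in smoke-exposed septa (adjusted p = 0.0982) and Ablim3 -1.0 (adjusted p = 0.108). In the vessels of the wild-type controls, mostly from the same mice, 10 of the 10 higher genes and 8 of the 10 lower genes had the same sign, 5 and 1 of them at an unadjusted p under 0.05, against 5.83% higher and 3.86% lower over all genes, of which 51.5% were above 0. Cd14 gave 3.37 in the vessels and Pdcd10 2.26, while Vwf gave -0.18.

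The differences between these time effects were tested directly, gene by gene. Wild-type minus knockout controls gave 0 of 20710 genes past an adjusted p of 0.05 in limma (805 or 3.89% at an unadjusted p under 0.05), control minus smoke-exposed wild-type septa gave 0 (1056, 5.1%), and septa minus vessels of the wild-type controls gave 0 (1018, 4.92%). For the time effect within each set, 0 genes passed in knockout control septa (1446 or 6.98% at an unadjusted p under 0.05), 16 in smoke-exposed wild-type septa (0.0773%, with 9.31% at an unadjusted p under 0.05) and 10 in wild-type control vessels (0.0483%, with 9.69%). Map1b had the widest gap between wild-type and knockout among the 20 genes, -5.04 (unadjusted p = 0.00111, adjusted p = 1). Over all genes, the time differences of wild-type and knockout controls, which share no arrays, correlated at r = 0.234 across 20710 genes and 0.318 across the 12620 genes above the dim level. Genes are not independent replicates, and the value is a description.

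**Figure D2:**
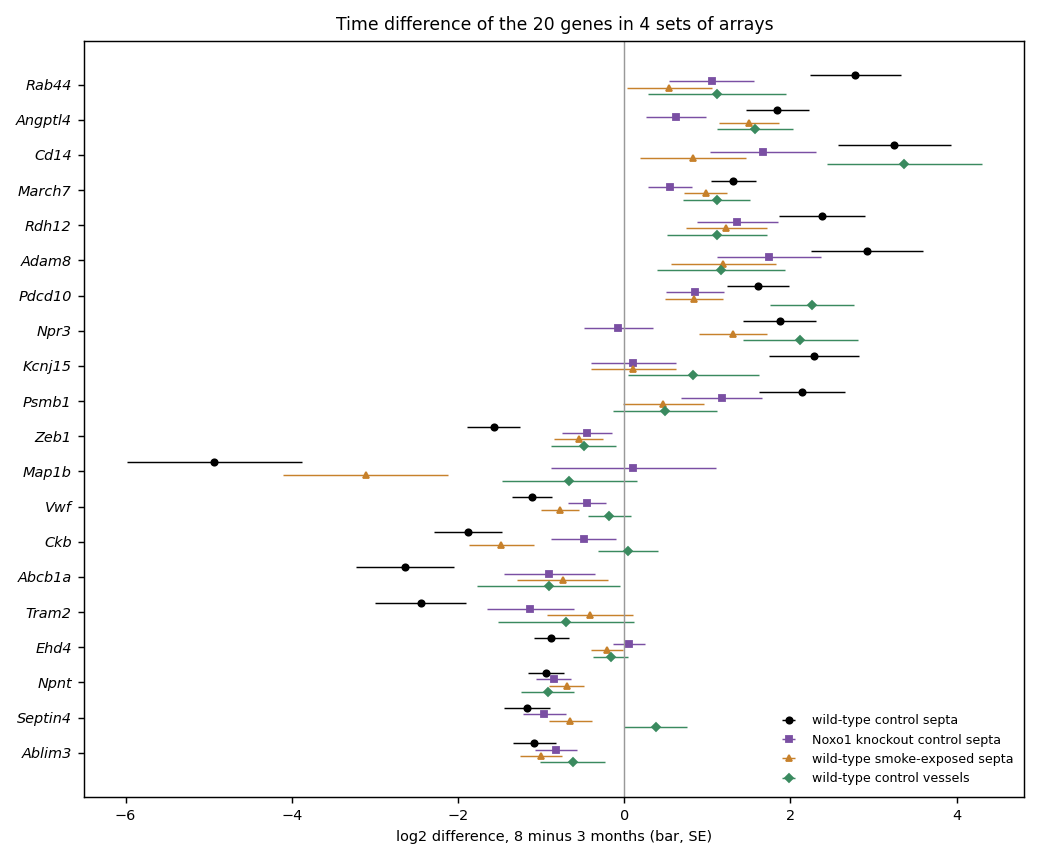
Log2 difference, 8 minus 3 months, with its SE as a bar, for the 20 genes in wild-type control septa (black circles), Noxo1 knockout control septa (purple squares), smoke-exposed wild-type septa (orange triangles) and wild-type control vessels (green diamonds). The black circles, on which the genes were chosen, lie farthest from 0 for most genes. Npnt and Ablim3 lie close together in all 4 sets, and Npr3, Kcnj15, Map1b and Ehd4 lie near 0 in the knockout.

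Neutrophil markers formed the list with the highest median when all arrays were used. Of 11 measured markers 10 were above 0 with a median of 1.04, beside 0.01 for all genes, and 5 reached an unadjusted p under 0.05, all higher, against 3.85% of all genes higher at that p and 51.1% above 0. Mmp8, neutrophil collagenase, was 12.51, 10.31, 10.53, 10.23 and 11.97 at 8 months, against 9.28, 7.43, 6.54 and 9.03 at 3 months, a difference of 3.04 ± 0.82 (adjusted p = 0.203). Retnlg, a resistin-like protein of mouse neutrophils, averaged 13.02 ± 0.49 at 8 months and 11.07 ± 0.69 at 3 months. S100a8 and S100a9 encode the 2 chains of calprotectin, a major cytosolic protein of neutrophils. S100a8 was 14.62, 13.66, 14.21, 13.22 and 14.49 at 8 months, against 12.48, 11.77, 12.02 and 12.88 at 3 months, a difference of 1.75 ± 0.53, and S100a9 differed by 0.99 ± 0.31. These 4 genes did not overlap between the groups, against 1.38% of all genes higher without overlap.

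The other neutrophil markers were uneven. Lcn2, a siderophore-binding granule protein that lung epithelium also makes, differed by 1.32 ± 0.47 with overlap, the chemokine receptor gene Cxcr2 by 1.04, and Mmp9 by 1.15. Without replicate 2 of the 3-month group Cxcr2 differed by 0.51 and Mmp9 by 0.24. Csf3r, the receptor for granulocyte colony-stimulating factor, averaged 14.05 ± 0.28 at 8 months and 13.86 ± 0.31 at 3 months. Camp and Ngp, made in immature neutrophils of the bone marrow, gave 0.23 and -0.28, and the sign of either turned when single arrays were left out. The mean level of the 11 markers was 9.72 to 10.92 in the 8-month arrays and 8.44 to 9.78 in the 3-month arrays. In whole tissue, fewer cells of a type and less RNA per cell cannot be told apart. Cd14, Adam8 and Rab44 are also expressed by neutrophils, and Hdc, histidine decarboxylase, which was named after its values were seen, gave 10.39 ± 0.63 at 8 months and 8.38 ± 0.39 at 3 months (2.01, unadjusted p = 0.00105). The part of neutrophil markers in these differences was not tested. The list's median was 0.51 without replicate 2 of the 3-month group, the array with the lowest level, and then lay below the 0.76 of the glucocorticoid-induced list. It was 1.13 without mouse 29.

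Knockout control septa, which share no arrays with these, gave a neutrophil median of 0.83, with 9 of 11 above 0 against 53.2% of all genes. At an unadjusted p under 0.05, 5 were higher and 1 lower there, against 4.06% and 2.92% of all genes. S100a8 gave 1.49 ± 0.50 there and Mmp8 2.18 ± 0.77. In smoke-exposed wild-type septa the median was 0.25, with no marker at an unadjusted p under 0.05. In wild-type control vessels the median was 1.68, with 10 of 11 above 0 against 51.5% of all genes. At an unadjusted p under 0.05, 5 were higher and 1 lower there, against 5.83% and 3.86% of all genes. Mmp8 and Retnlg gave 5.54 and 5.51 in the vessels (limma, adjusted p = 0.0158 each).

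The promoters of the 4 neutrophil genes whose groups did not overlap are printed, as the members of this list described above with their values. Each is the 250 bases before the RefSeq start (build GRCm38.p6), on the gene's strand, with capitals at the motif TTNNGNAA read on both strands, a loose form of the site of C/EBP proteins, the transcription factors of granulocyte maturation. S100a8 lies on the plus strand at chr3:90668821-90669070, S100a9 on the minus strand at chr3:90695722-90695971, Retnlg on the plus strand at chr16:48872358-48872607 and Mmp8 on the plus strand at chr9:7558179-7558428.
S100a8: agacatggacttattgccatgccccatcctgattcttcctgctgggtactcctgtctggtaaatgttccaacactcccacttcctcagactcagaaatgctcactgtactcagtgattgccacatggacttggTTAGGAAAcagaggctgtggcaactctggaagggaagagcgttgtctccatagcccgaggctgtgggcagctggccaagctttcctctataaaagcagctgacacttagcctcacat
S100a9: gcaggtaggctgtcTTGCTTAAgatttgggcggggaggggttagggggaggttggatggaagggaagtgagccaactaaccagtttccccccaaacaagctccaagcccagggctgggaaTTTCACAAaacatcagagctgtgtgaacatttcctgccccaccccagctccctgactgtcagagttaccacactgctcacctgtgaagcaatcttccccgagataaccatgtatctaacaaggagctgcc
Retnlg: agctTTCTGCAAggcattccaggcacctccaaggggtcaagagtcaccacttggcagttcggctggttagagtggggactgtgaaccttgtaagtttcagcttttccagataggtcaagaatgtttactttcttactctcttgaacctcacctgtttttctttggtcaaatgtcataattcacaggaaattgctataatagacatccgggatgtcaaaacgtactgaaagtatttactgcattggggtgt
Mmp8: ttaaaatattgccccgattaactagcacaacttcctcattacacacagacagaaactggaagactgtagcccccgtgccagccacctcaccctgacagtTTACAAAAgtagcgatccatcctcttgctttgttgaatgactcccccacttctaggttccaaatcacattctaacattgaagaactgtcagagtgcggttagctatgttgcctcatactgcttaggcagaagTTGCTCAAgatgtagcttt
S100a8 and Retnlg held 1 match each, beginning 117 and 246 bases before the start, while S100a9 held 2, at 236 and 130, and Mmp8 2, at 151 and 19. The motif is common, present in 36.8% of all 32851 promoter windows of that length, and a match is a description and no shown site. The search was made after the values were seen, TTNNGNAA being added once the other motifs had been looked at, and covered 8 motifs in 21 genes, 15 of which had a window. TTNNGNAA was found in 9 of the 15, CACGTG in 2 (Fkbp5 and Tef, 6.02% of all windows), TTATGTAA in 1 (Per3, 0.819%), GAACA in 4 (36.2%) and 1 of the 2 consensus forms of the NF-kappa-B site in 1 (Cxcl2, 0.0852%). TTACGTAA (0.113%), TTGCGCAA (0.164%) and the other NF-kappa-B form (0.14%) were found in 0 of the 15. TTATGTAA, TTACGTAA and TTGCGCAA are also forms of TTNNGNAA.

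Glucocorticoid-induced genes stood above 0 without exception. All 12 measured members were higher on average at 8 months, against 51.1% of all genes, with a median of 0.78. Of the 12, 5 reached an unadjusted p under 0.05, against 3.85% of all genes higher at that p. Zbtb16, a zinc finger protein strongly induced by glucocorticoids, was 11.25, 11.37, 10.97, 12.08 and 11.49 at 8 months, against 8.16, 8.95, 9.92 and 9.42 at 3 months, a difference of 2.32 ± 0.62 (adjusted p = 0.203). Fkbp5, a co-chaperone that dampens the glucocorticoid receptor, was 8.10, 7.81, 8.11, 7.66 and 7.77 at 8 months, against 6.13, 6.04, 6.19 and 6.67 at 3 months, a difference of 1.63 ± 0.47 (adjusted p = 0.226). Both groups were tight and well apart. Pdk4, a kinase that switches cells from glucose to fat oxidation, differed by 2.29 ± 0.74 without overlap, and Lcn2, counted among the neutrophil markers too, is a member of this list.

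Tsc22d3, the leucine zipper protein GILZ, differed by 0.46 ± 0.18, and Klf9 by 0.57 ± 0.36, both named after their values were seen. The mean level of the 12 genes was 10.53 to 11.61 at 8 months and 9.49 to 10.64 at 3 months, with replicate 3 of the 3-month group the highest of its group. In the knockout controls the list's median was 0.46, with 9 of 12 above 0 against 53.2% of all genes. Fkbp5 gave 0.01 ± 0.45 there, Zbtb16 0.36 ± 0.59, Pdk4 -0.03 ± 0.70 and Lcn2 1.11 ± 0.44. Wild-type minus knockout was 1.62 for Fkbp5 (unadjusted p = 0.0167), 1.96 for Zbtb16 (0.0275) and 2.32 for Pdk4 (0.0274), each with an adjusted p of 1. For Lcn2 it was 0.21 and for Tsc22d3 0.59. Fkbp5, Zbtb16, Pdk4 and Lcn2 had been chosen for their low p in the wild-type, which favours a wider difference there. In smoke-exposed wild-type septa Fkbp5 gave 1.64 and Zbtb16 1.89, and in control vessels 0.62 and 1.55. The list's median was 0.42 in smoke-exposed wild-type septa, with 10 of 12 above 0 against 49.3% of all genes. In control vessels it was 0.9, with 11 of 12 above 0 against 51.5%.

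Clock genes lay on both sides of 0, with 12 of 19 above 0 and a median of 0.13, or 0.23 without mouse 29. Nfil3, a repressor of D-box genes, was 9.72, 8.46, 9.44, 8.36 and 9.21 at 8 months, against 6.35, 6.00, 8.26 and 6.33 at 3 months, a difference of 2.31 ± 0.64 (adjusted p = 0.21). Replicate 3 of the 3-month group stood far above the rest of its group. Dbp, the activator of the same D-box elements, was 8.30, 4.54, 4.38, 7.98 and 9.67 at 8 months, against 9.07, 10.43, 8.67 and 11.11 at 3 months. Its 8-month arrays spread widely and overlapped the 3-month arrays, and the difference was -2.84 ± 1.14 (adjusted p = 0.496).

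Nr1d1, the repressor REV-ERB alpha, averaged 5.61 ± 1.39 at 8 months and 7.29 ± 1.03 at 3 months, a difference of -1.69. Arntl, which encodes the clock activator BMAL1, gave 1.37 with an unadjusted p of 0.165. The time of day at which the tissues were taken was not stated, and its part was not tested. Dbp gave 0.11 in the knockout controls, 3.08 in smoke-exposed wild-type septa (adjusted p = 0.321) and -4.31 in the control vessels, so its sign was not the same in these sets.

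**Figure D3:**
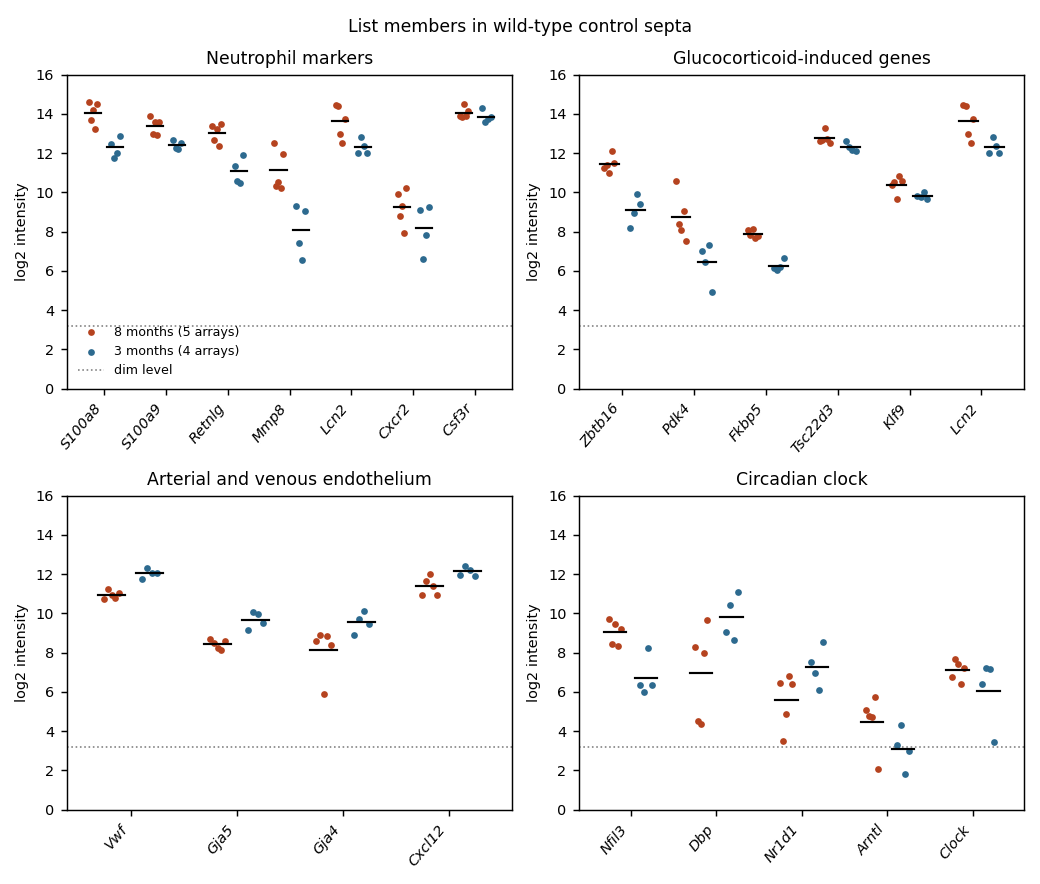
Each point is 1 array of wild-type control septa, 8 months left of 3 months, with log2 intensity on the vertical axis, a black bar at the group mean and a dotted line at the dim level of 3.21, for members of 4 gene lists. S100a8, S100a9, Retnlg, Mmp8, Zbtb16, Pdk4, Fkbp5 and Nfil3 lie higher and Vwf and Gja5 lower at 8 months without overlap, while Csf3r, Cxcr2, Dbp, Nr1d1, Arntl and Clock overlap.

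Markers of arterial and venous endothelium lay lower at 8 months, with 4 of 12 above 0, a median of -0.51 and 4 at an unadjusted p under 0.05, all lower, against 3.64% of all genes lower at that p and 51.1% above 0. Beside Vwf these were the gap junction genes of arteries, Gja5 and Gja4, and the chemokine gene Cxcl12. Gja5 was 8.69, 8.49, 8.24, 8.14 and 8.62 at 8 months, against 9.17, 10.09, 9.95 and 9.52 at 3 months, a difference of -1.25 ± 0.35 (adjusted p = 0.21). Gja4 differed by -1.42 ± 0.48, with replicate 3 of the 8-month group at 5.92, far below its group, and by -0.87 without that array. The mean level of the 12 markers was 8.18 to 8.77 at 8 months and 8.83 to 9.23 at 3 months, without overlap. In knockout control septa the list's median was -0.22, with 5 of 12 above 0 against 53.2% of all genes. It was -0.07 in smoke-exposed wild-type septa, with 6 of 12 above 0 against 49.3%, and 0.11 in control vessels, with 7 of 12 against 51.5%. How much of larger vessels each dissected sample held was not stated, and its part was not tested. Smooth muscle markers had a median of -0.04, or -0.12 without mouse 29.

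Capillary endothelium markers had a median of -0.13, with 5 of 13 above 0 and Plvap, the protein of capillary diaphragms, at -0.67. Lyve1, a hyaluronan receptor of lymphatic vessels and some macrophages, was 12.23, 12.02, 11.69, 12.17 and 12.61 at 8 months, against 10.79, 11.46, 11.57 and 11.10 at 3 months, a difference of 0.91 ± 0.25 without overlap. The lymphatic list as a whole had a median of 0.03, or -0.02 without mouse 29. Erythroid genes had a median of -0.77 with 1 of 6 above 0 and none at an unadjusted p under 0.05. Their mean level spread from 6.87 to 9.95 at 8 months and from 7.55 to 10.99 at 3 months, wider within the groups than between them. The median of the erythroid list ran from -1.32 to -0.3 when single arrays were left out. In knockout control septa it was -2.35, with 6 of 6 lower at an unadjusted p under 0.05, against 2.92% of all genes lower. It was -0.83 in wild-type control vessels, with 0 of 6 above 0, and 0.32 in smoke-exposed wild-type septa, with 5 of 6 above 0.

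Of the epithelial markers, 10 of 14 type 2 pneumocyte genes were above 0, against 51.1% of all genes, with a median of 0.19. Lyz1, lysozyme, averaged 10.63 ± 0.18 at 8 months and 9.91 ± 0.22 at 3 months, surfactant protein D, Sftpd, 12.22 ± 0.21 at 8 months and 11.53 ± 0.46 at 3 months, and surfactant protein A, Sftpa1, 11.53 ± 0.26 at 8 months and 11.06 ± 0.20 at 3 months. Their differences were 0.72, 0.69 and 0.47, each at an unadjusted p under 0.05, against 3.85% of all genes higher at that p. Lyz1 and Sftpa1 did not overlap, against 1.38% of all genes higher without overlap. Type 1 pneumocyte markers were at a median of -0.04 (-0.13 without mouse 29), with Emp2 at -0.54 and the water channel Aqp5 at -0.51. Plet1, listed with alveolar macrophages and also made by epithelium, was 9.88, 10.70, 8.85, 8.61 and 9.88 at 8 months, against 7.14, 7.92, 7.75 and 5.13 at 3 months. Its difference was 2.60 ± 0.64 (adjusted p = 0.155) and 1.16 ± 0.96 on a second probe. On the first probe it was 2.28 in smoke-exposed wild-type septa and 0.35 in knockout controls. The macrophage list had a median of 0.22, with 8 of 14 above 0, but 0.67 without mouse 29 and -0.10 to 0.73 when single arrays were left out.

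Of the cytoskeletal and matrix lists, tubulins had a median of -0.39 with 4 of 15 above 0 and 4 at an unadjusted p under 0.05, all lower, against 3.64% of all genes. Tuba1b, a ubiquitous alpha-tubulin, averaged 13.18 ± 0.28 at 8 months and 13.76 ± 0.32 at 3 months (-0.58 ± 0.17), but 0.36 ± 0.31 on its second probe. Tubb2a differed by -0.89 ± 0.32. In knockout control septa 4 tubulins were lower at an unadjusted p under 0.05, against 2.92% of all genes. In smoke-exposed wild-type septa 5 were, against 4.19%. Tubb2a gave -1.41 ± 0.30 and Tuba1b -0.66 ± 0.16 in the knockout. Interstitial collagens lay at a median of -0.18, with 2 of 11 above 0 and none at an unadjusted p under 0.05, a median that changed sign under some alternatives, and basement membrane genes at -0.19, with 5 of 21 above 0 and none.

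Integrins were at a median of -0.22 (-0.63 to -0.08 when single arrays were left out) with 3 lower at an unadjusted p under 0.05, against 3.64% of all genes. Itga1, a chain of a collagen receptor, averaged 7.40 ± 0.61 at 8 months and 8.85 ± 0.29 at 3 months, a difference of -1.45 ± 0.39 without overlap, with -0.79 ± 0.59 on its second probe, and gave -1.03 ± 0.37 in the knockout. The proteoglycan biglycan, Bgn, differed by -1.09 ± 0.33 and gave -1.10 ± 0.31 in the knockout. Lox, which crosslinks elastin and collagen, lay higher, with 9.07 ± 0.77 at 8 months and 7.10 ± 1.02 at 3 months (1.96 ± 0.61). Lox gave 1.87 in smoke-exposed wild-type septa and -0.09 in knockout controls. The elastic fibre list as a whole had a median of -0.11 with 9 of 20 above 0, or -0.20 without mouse 29. Proteases and their inhibitors had a median of 0.44 with 17 of 21 above 0, against 51.1% of all genes. The members at an unadjusted p under 0.05 were Mmp8 and Adam8, both already given, against 3.85% of all genes higher at that p. That median was 0.25 without replicate 2 of the 8-month group.

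Of the stress and defence lists, the unfolded protein response had 16 of 18 members above 0 and a median of 0.45. Of the 18, 3 reached an unadjusted p under 0.05, all higher, against 3.85% of all genes higher at that p and 51.1% above 0. Dnajb9, a co-chaperone of the endoplasmic reticulum, was 7.28, 6.55, 5.80, 6.25 and 5.66 at 8 months, against 5.32, 4.32, 5.45 and 4.08 at 3 months, a difference of 1.51 ± 0.49. Xbp1, the transcription factor of this response, differed by 0.65 ± 0.21 (0.42 without replicate 4 of the 3-month group), and Creld2 by 1.18 ± 0.44. In knockout control septa the list's median was 0.34, again with 16 of 18 above 0, against 53.2% of all genes. Dnajb9 gave 2.09 ± 0.46 and Xbp1 0.64 ± 0.20 in the knockout. In control vessels 17 of 18 were above 0, against 51.5% of all genes. There 10 reached an unadjusted p under 0.05, all higher, against 5.83% of all genes higher. The septal median was 0.28 without replicate 2 of the 8-month group.

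Nfe2l2, which encodes the antioxidant regulator NRF2, was 8.80, 8.40, 9.59, 9.01 and 8.97 at 8 months, against 7.72, 7.55, 8.16 and 7.33 at 3 months. The groups did not overlap, the difference was 1.27 ± 0.31 (adjusted p = 0.155), and it was 1.52 ± 0.29 in knockout controls and 1.02 in smoke-exposed wild-type septa. Keap1, the inhibitor of NRF2, differed by -1.13 ± 0.49, with -0.29 ± 0.46 in knockout controls and 0.19 ± 0.46 in smoke-exposed wild-type septa. The list of NRF2 targets, which also holds Nfe2l2 and Keap1 themselves, had a median of 0.13 with 10 of 15 above 0. Gstm1, a glutathione transferase among them, differed by -0.81 ± 0.23 on its brightest probe and by 0.05 ± 0.26 on a second, also bright probe. Without mouse 29 the median of the NRF2 targets was 0.22, and it ran from 0.07 to 0.40 when single arrays were left out. Chemokines had a median of 0.40 with 16 of 26 above 0, but 0.01 without replicate 2 of the 8-month group. Cxcl2, a neutrophil attractant, was 8.19, 3.20, 4.28, 3.46 and 6.94 at 8 months, against 2.27, 1.86, 1.70 and 1.87 at 3 months. All 3-month values were below the dim level. The interferon response had a median of 0.27 with 14 of 21 above 0, but 0.15 without mouse 29. Proliferation genes were at -0.16 with 10 of 24 above 0, and at -0.31 to 0.18 when single arrays were left out.

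**Figure D4:**
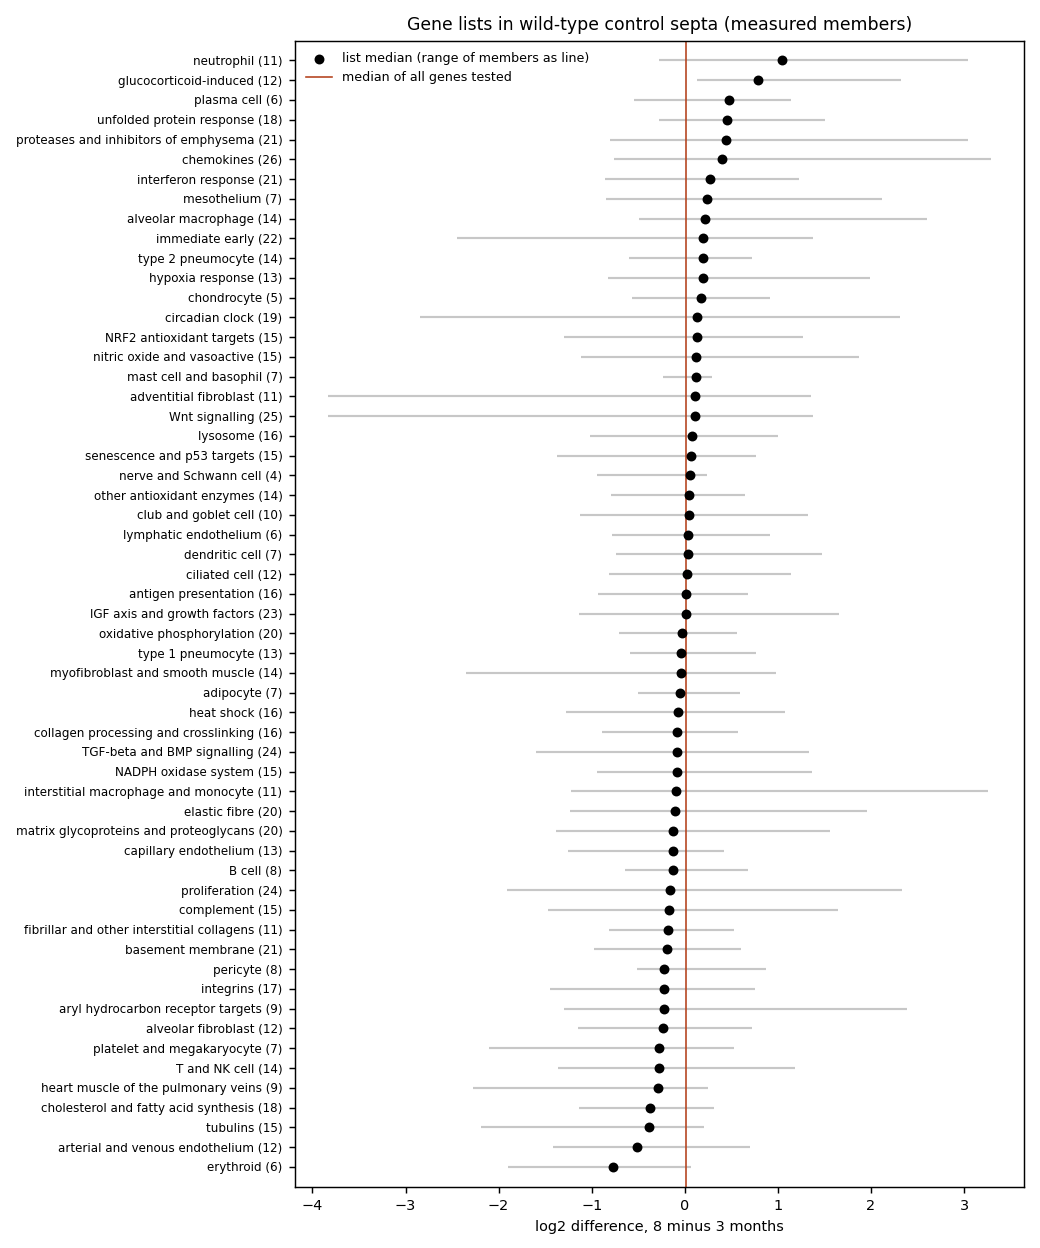
Median log2 difference, 8 minus 3 months, of 57 gene lists in wild-type control septa (black points), with the range of the members as a grey line and the number of measured members in brackets. The red line marks the median of all genes, 0.01. With all arrays, neutrophil (1.04) and glucocorticoid-induced genes (0.78) have the highest medians, and erythroid (-0.77) and arterial and venous endothelial genes (-0.51) the lowest.

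Features without a gene symbol were tested apart, and 1 of 31125 (0.00321%, against 6.03% at an unadjusted p under 0.05) passed an adjusted p of 0.05. Feature 15028 averaged 8.83 at 8 months and 10.36 at 3 months, a difference of -1.52 ± 0.27 (limma, adjusted p = 0.0377), and is unnamed here. No such feature passed in 6 of the 9 fits that left out 1 array.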

How the data were processed

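RNA of microdissected septa and vessels was amplified, labelled with Cy5 and hybridised to single-colour Agilent mouse arrays, per the labels' protocols. The deposited values are log2 intensities that the authors made with limma, per the submitters' processing notes, whose version, settings and background correction are not given in the sources used here. Quartiles of the columns differed by at most 0.00737, which was read as quantile normalization. Of 62976 features 31465 had a gene symbol, of which 29036 were matched by accession to RefSeq (GRCm38.p6). The 671 features with an empty cell were left out, and the feature with the highest mean over the septa stood for each of 20710 genes.

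Group means of the 8 septa groups (39 arrays) were fitted with limma 3.58.1 in R 4.3.3 (lmFit, eBayes with a trend) and p-values adjusted by Benjamini-Hochberg at 0.05. The septa and vessel comparison used 76 arrays with mouse as a random block. The procedure was tested on simulated data. An unadjusted p is that of the same limma fit. Groups were taken from the sample titles. Nothing says whether replicate mice shared a cage or litter, so p-values measure the spread between these samples. Arrays were called female where Xist exceeded Eif2s3y, a rule chosen after seeing the data because a planned one with dimmer Y-linked genes went against Xist in 2 arrays.

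Named genes are per direction the 10 of lowest p whose mean signal exceeded the 25th percentile, numbered gene models set aside, and up to 4 members of each list with an unadjusted p under 0.05. Csf3r, Cxcr2, Mmp9, Camp, Ngp, Arntl, Clock, Tsc22d3, Klf9, Chil3, Hdc, Ccdc71l, Atg2a and Pgr were named after their values were seen. Members and lists were chosen with earlier results of these data known. Alternatives were another quantile normalization, 2 filters on dim genes, the mean of probes, array weights, only the groups compared, no trend, a replicate block, sex as a covariate, a fit of both tissues, and leaving out arrays. Same-numbered arrays of the 2 groups did not deviate together (r of residuals 0.0104 to 0.0403 over 4 pairs).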

Additional observations from a re-analysis of the deposited data

Results flagged for a closer look

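Of 264 groups of named values, 21 held an array far from its group by Dixon's rule, which flags about 1 in 20 groups by chance. In the 8-month arrays these were Angptl4 at 8.74 and Mmp9 at 4.37 in replicate 2, Map1b at 6.39 in replicate 1, Gja4 at 5.92, Ptgis at 6.61 and Tsc22d3 at 13.3 in replicate 3, and Kcnj15 at 6.66, Keap1 at 5.58, Gzma at 8.8 and Arntl at 2.09 in replicate 5. In the 3-month arrays they were Fzd6 at 6.79, Ltbp4 at 10.91, Arnt at 7.81 and H2-DMb1 at 10.08 in replicate 1, Tuba1a at 12.32 in replicate 2, Thbs1 at 12.91, Nfil3 at 8.26 and Hmgcs1 at 10.33 in replicate 3, and Pcolce2 at 11.35, Egln3 at 2.51 and Chil3 at 9.88 in replicate 4. The array of mouse 29 was not among them. Without the far array, Map1b differed by -5.82 (adjusted p = 0.0276) and Angptl4 by 2.09 (adjusted p = 0.023).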

How the results depend on the processing

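The count of 0 genes between 8 and 3 months became 4 with array weights (3 higher, 1 lower), 12 with only the 9 arrays compared, and 2 in 1 fit of both tissues (Map1b and Ckb, both lower), and it ran from 0 to 4 when single arrays were left out, with 1 gene without replicate 1 of the 8-month group (Map1b) and 4 without its replicate 2 (Ckb, Angptl4, March7 and Rab44). It was 0 after another quantile normalization, with either filter on dim genes, with the mean of probes, without a trend, with either sex covariate, without mouse 29 and without both arrays of the female pattern. With the replicate number as a block the count was 0 too. The single unnamed feature called became 0 with that block, an alternative chosen after seeing the data, although same-numbered arrays did not deviate together. The 3 counts of differences between time effects stayed at 0 in every alternative run for them. The count of unnamed features called, 1 with all arrays, ran from 0 to 3 when single arrays were left out. Of 132 named genes 2 changed sign in their 21 or 22 alternatives: Camp, at -0.05 to 0.5 when single arrays were left out (below 0 without replicate 2 of the 3-month group) and -0.22 without both arrays of the female pattern, and Ngp, at -0.72 to 0.22 (above 0 without replicate 3 of the 8-month group, 0.07, and replicate 4 of the 3-month group). Leaving out 1 array moved 19 of the 132 by over 1.5 times. The medians of 31 of 57 lists changed sign in at least 1 alternative, among them interstitial collagens, proliferation and alveolar macrophages. Those of the other 26 kept their sign, among them neutrophil, glucocorticoid-induced, unfolded protein response, arterial and venous endothelial and tubulin genes. The number of arrays and the dim level limit precision, and the SE among the named genes was widest for Dbp (1.14), Sfrp2 (1.06), Map1b (1.05) and Ccl17 (1.04).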
